A study of Mus musculus with 12 samples.

Results

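The genes described here belong to gene families with a part in synaptic vesicle release. These are the synaptotagmins, syntaxins, syntaxin-binding proteins, vesicle-associated membrane proteins (VAMPs), the SNAP-25 family with AP180, synapsins, SV2 glycoproteins, Rab3 GTPases and complexins. They were chosen by symbol and not by function. The set therefore also holds syntaxins of endosomes, Golgi and ER, VAMPs other than the neuronal Vamp1 and Vamp2, and a processed pseudogene (Stxbp3-ps). Of the 24985 genes in the count table, 65 had a symbol of these families, and the 60 with a mean raw count of 10 or more over the 12 mice were kept. These were 16 synaptotagmins, 13 syntaxins, 8 syntaxin-binding proteins, 6 VAMPs, 4 genes of the SNAP-25 family with AP180, 4 Rab3 genes, 3 complexins, 3 synapsins and 3 SV2 genes. The 5 left out had total counts over all 12 mice of 0 for Stx19, 0 for Vamp7, 1 for Syt8, 8 for Cplx4 and 44 for Stx11. Nearest to the minimum were Syt15 inside it, with a mean count of 17.6, and Stx11 outside it, with 3.67. All 60 passed the filter on low counts used for the tests.

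Release begins when a vesicle SNARE protein (a VAMP) zips into a bundle with the SNARE proteins of the plasma membrane, a syntaxin and SNAP-25, and so pulls both membranes together. Synaptotagmins on the vesicle sense calcium, complexins hold and then assist the bundle, and the Munc18 proteins (syntaxin-binding proteins) hold syntaxin ready. Synapsins tether the reserve of vesicles, Rab3 GTPases guide vesicles to the membrane, and adaptors such as AP180 retrieve vesicle proteins afterwards. In the hippocampus this machinery serves the excitatory trisynaptic circuit and its inhibitory neurons.

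RNA-seq of the right dorsal hippocampus was available for 12 wild-type C57Bl6/J mice, injected on one side at 6 months of age with PBS or with 1 µg of tau purified from human AD brain and collected 6 months later. Each injection was combined with a control diet (standard chow from TestDiet) or a diet high in acetate (Na-acetate at 5% in LabDiet 5001), which gave 4 groups of 3 mice. All mice went through fear conditioning and were collected 24 h after remote recall, and the mice sequenced were picked by the authors as representative of their groups. The study asked how dietary acetate and pathological tau interact. The study's methods call the control diet matched in calories and name TestDiet as the manufacturer. The composition of the feeds was not given beyond this in the sources used here, so acetate and any other difference between them cannot be told apart. The labels state that all mice were collected on 1 day and processed together, so no batch could be compared.

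Total counts were 12983233 to 20218340 per mouse, and the 60 members took 1.55% to 1.79% of them. Markers of CA1 (452 to 946 CPM summed per mouse over 5 genes) and of dentate granule cells (393 to 645 CPM over 5 genes) were present in every mouse. All labels give the sex as male, but Xist had 13583 to 25991 counts in each of the 12 mice and 4 Y-linked genes summed to 0, so every library went against that label. PBS-injected control-diet mouse 2 stood apart by thalamus markers (338 CPM summed, against 92.3 to 173 in the others). Tau-injected acetate-diet mouse 3 stood apart by choroid plexus markers (460 CPM against 62.5 to 192) and by medial habenula genes chosen after their values were seen (42.7 CPM against 3.75 to 7.16). Counts with these mice left out are given beside the results. In whole tissue, fewer cells of a type and less RNA per cell cannot be told apart.

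Levels between genes were compared as RPKM, the read count divided by library size and by exon length in kilobases, calculated here from the counts and GENCODE exon lengths on GRCm38. The complexin Cplx2 was highest at 414 ± 20.3 RPKM (SD, n = 12), followed by the membrane SNARE Snap25 at 346 ± 49.7 and the vesicle SNARE Vamp2 at 260 ± 10.1. Cplx1 (217), Rab3a (205), the fast calcium sensor Syt1 (203), Syt11 (177) and Syn1 (176) came next. Ranges over mice of neighbours among these 8 overlapped at every step. The next member reported here was Snap47, whose highest mouse (116 RPKM) was below the lowest mouse of Syn1 (156 RPKM). Further down there were gaps below Sv2a (99.1 RPKM) and below Vamp5 (0.884 RPKM).

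Most families had 1 or a few members at high level and others far lower. Among the syntaxins several lay close, such as Stx12 at 43.2 RPKM, Stx1a at 32.2, Stx16 at 28.0 and Stx7 at 25.9. The lowest syntaxin was Stx8 at 2.56. Among the VAMPs, Vamp2 stood above Vamp4 (22.2) and Vamp1 (12.2), and Vamp5 was lowest. Syt1 led a family whose median was 10.0 RPKM and whose lowest member, Syt15, had 0.217. Cplx3, a complexin best known from ribbon synapses of the retina, had 0.908 RPKM. Spread between mice was widest for Snap25 among the most abundant members and for Syt9 (0.493 to 6.78 RPKM) among the rare ones. Stxbp3-ps is annotated as a processed pseudogene of Stxbp3, so reads could be split between them, and the values of both are uncertain. The exons of Stx5a overlap the microRNA gene Mir6992 on the same strand.

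**Figure D1:**
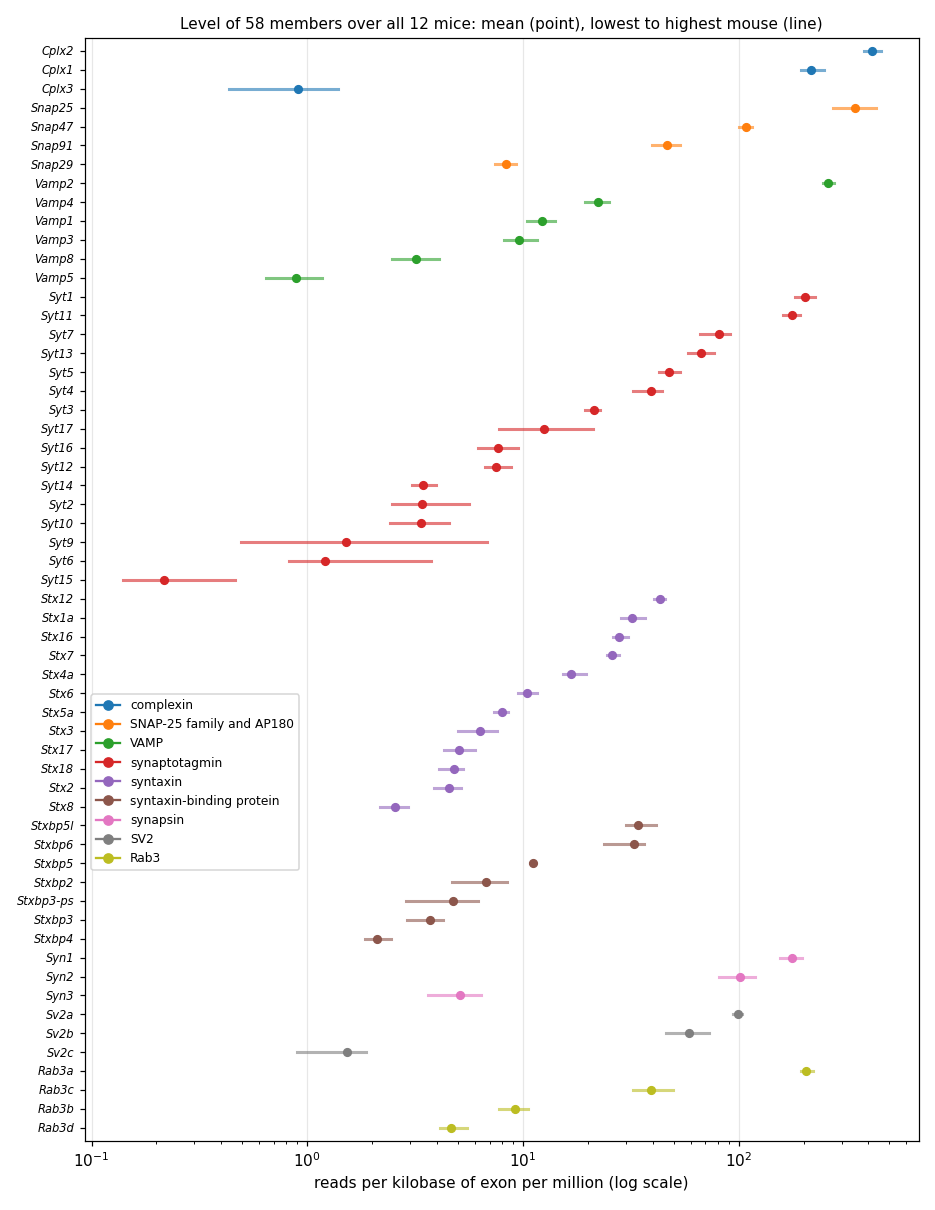
Level of 58 members in RPKM on a log axis, grouped by family. Points are means over all 12 mice and lines run from the lowest to the highest mouse. Cplx2, Snap25 and Vamp2 lead, and Syt9 and Syt15 have among the widest ranges.

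RefSeq promoters (GRCm38.p6) reach from 250 bases before to 50 after a start and were in the table for 47 of the 60 members, with 61 promoters. Snap25 and Syt5 were not among them. The promoters of 3 members that were lower on the acetate diet in PBS-injected mice (Syn1, Syn2, Snap91) and of 2 that were higher (Syt16, Stxbp2) are printed 5′ to 3′, so that both sets can be read side by side. Promoters of other members called there, among them Vamp1, Vamp4, Stx17 and Cplx3, were available but are not printed. Capitals mark matches on either strand to the cAMP response element TGACGTCA, the GC box GGGCGG, the TATA box TATAAA, the left and right parts of the neuronal repressor element RE1 (TTCAGCACC and GACAGNGCC) and the E-box CACGTG.
Syn1, chrX:20920869-20921168, minus strand: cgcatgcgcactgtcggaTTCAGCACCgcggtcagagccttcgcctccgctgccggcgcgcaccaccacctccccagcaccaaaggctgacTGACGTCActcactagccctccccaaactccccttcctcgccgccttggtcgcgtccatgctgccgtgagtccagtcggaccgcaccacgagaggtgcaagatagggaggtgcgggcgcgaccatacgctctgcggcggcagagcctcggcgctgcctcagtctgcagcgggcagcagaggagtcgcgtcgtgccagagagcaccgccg
Syn2, chr6:115134652-115134951, plus strand: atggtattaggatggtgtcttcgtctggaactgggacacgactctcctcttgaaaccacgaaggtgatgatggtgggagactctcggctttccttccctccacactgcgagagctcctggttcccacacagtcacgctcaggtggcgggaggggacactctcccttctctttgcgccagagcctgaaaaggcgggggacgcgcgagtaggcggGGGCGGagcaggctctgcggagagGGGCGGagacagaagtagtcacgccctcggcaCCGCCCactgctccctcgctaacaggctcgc
Snap91, chr9:86880659-86880958, minus strand: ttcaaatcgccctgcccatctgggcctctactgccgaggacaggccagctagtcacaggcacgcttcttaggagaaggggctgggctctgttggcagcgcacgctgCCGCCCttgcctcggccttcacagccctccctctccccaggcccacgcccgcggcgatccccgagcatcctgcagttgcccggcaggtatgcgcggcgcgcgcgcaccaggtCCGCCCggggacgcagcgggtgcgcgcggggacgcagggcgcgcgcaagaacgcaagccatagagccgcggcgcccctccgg
Syt16, chr12:73997527-73997826, plus strand: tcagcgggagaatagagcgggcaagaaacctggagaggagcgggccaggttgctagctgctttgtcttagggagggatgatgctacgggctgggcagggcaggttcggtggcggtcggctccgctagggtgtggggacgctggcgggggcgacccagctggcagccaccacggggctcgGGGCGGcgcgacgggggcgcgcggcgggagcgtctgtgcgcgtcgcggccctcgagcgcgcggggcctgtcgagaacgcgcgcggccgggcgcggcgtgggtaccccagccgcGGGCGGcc
Stxbp2, chr8:3630859-3631158, plus strand: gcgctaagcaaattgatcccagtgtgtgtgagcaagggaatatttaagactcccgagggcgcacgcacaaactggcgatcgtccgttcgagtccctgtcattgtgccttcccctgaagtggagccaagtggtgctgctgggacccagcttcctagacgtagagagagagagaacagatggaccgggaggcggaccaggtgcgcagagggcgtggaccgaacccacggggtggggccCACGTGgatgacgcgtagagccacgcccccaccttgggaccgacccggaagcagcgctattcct
The Syn1 promoter held a full cAMP response element 159 bases before the start and a left part of RE1 232 bases before it. The cAMP response element was in 3.28% of member promoters (Syn1 and Stxbp3) and 1.79% of all 32851 promoters of the same length, and the left RE1 part in 1.64% (Syn1) and 0.371%. Syn2, Snap91 and Syt16 held GC boxes, which 68.9% of member promoters and 35.7% of all promoters have. Another Syn2 promoter, not printed, held none of the marked sites. Stxbp2 held an E-box 14 bases before the start, a match in 13.1% of member promoters and 7.15% of all. That E-box was also in promoters, not printed, of Vamp4, which was lower, and of Cplx3, which was higher. The right RE1 part was in 1.64% of member promoters (Syt10) and 1.51% of all, and the TATA box in 5 of 61 and in 13.6% of all. The median GC content was 64.0% for member promoters and 52.7% for all, which bears on how often GC-rich words occur. GC boxes stood in both the lower and the higher set, and no marked site overlapped another in the promoters printed. These are matches of letters only.

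The first comparison asked what AD tau did to the members on the control diet. No member passed edgeR's quasi-likelihood test at an adjusted p below 0.1, where 0.0136% of all 14742 genes tested did. DESeq2 called 0 members against 0.688% of all genes. The median log2 fold change was -0.0056 over the members and -0.00086 over all genes. Groups did not overlap for 9 members (15%), against 13.5% of all genes.

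Among the core genes, Vamp2 and Syt1 lay close in both injection groups, and Snap25 less so. Snap25 stood at 2775, 2544 and 2929 CPM (read counts scaled to library size by TMM) in the PBS-injected mice and at 2470, 2504 and 2545 CPM in the tau-injected mice. Vamp2 stood at 1030, 980 and 1049 CPM with PBS and at 1042, 1029 and 998 CPM with tau. Both genes overlapped between the groups, with log2 fold changes of -0.13 (95% interval -0.29 to 0.03) and 0.0046 (-0.09 to 0.10). For Snap25 the overlap was narrow, with the highest tau-injected mouse at 2545 CPM and the lowest PBS-injected mouse at 2544 CPM. Syt1 had 1878, 1698 and 1772 CPM with PBS and 1712, 1844 and 1793 CPM with tau, a log2 fold change of 0.00018 (95% interval -0.11 to 0.11). Those intervals bound the change in these genes but do not show that it is absent.

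The member with the smallest p was Stxbp3, which encodes the Munc18 protein best known from insulin-regulated transport, at 21.8, 22.8 and 20.4 CPM with PBS and 17.2, 15.5 and 16.9 CPM with tau. Its groups did not overlap, but the log2 fold change of -0.39 (SE 0.0993) had an edgeR adjusted p of 0.276. The largest log2 fold change belonged to Syt17 at 0.66 (adjusted p 0.439), and tau-injected control-diet mouse 2 carried it with 110 CPM against 57.0 and 66.6 in the other tau-injected mice and 40.5 to 54.5 with PBS. Without that mouse the log2 fold change was 0.32.

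The acetate and control diets were then compared after PBS injection, where 12 of the 60 members passed. Of these, 7 were lower, against 4.85% of all genes, and 5 were higher, against 3.99%. Groups did not overlap for 26 members (43.3%), against 26.3% of all genes. The members that fell were abundant vesicle and SNARE genes: among the 29 members with a mean of 100 CPM or more, 7 fell and 1 rose, and 22 (75.9%) had a log2 fold change below 0, while 58.4% of all 2414 genes at that level did. Of all genes at that level, 11.8% were called lower and 5.72% higher. Among the 31 rarer members, 0 fell and 4 rose, against 3.49% and 3.65% of all rarer genes.

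Snap25, the membrane SNARE cut by botulinum toxin A, fell most clearly. Its 2775, 2544 and 2929 CPM on the control diet compared with 2038, 1866 and 2341 CPM on the acetate diet, so every acetate-diet mouse was below every control-diet mouse. It fell by 24.3% (log2 fold change -0.40, SE 0.0754, adjusted p 0.0157 by edgeR). The vesicle SNARE Vamp2 was at 948, 938 and 991 CPM on acetate, overlapped its control mice and was not called (log2 fold change -0.09, adjusted p 0.286). Its paralog Vamp1 fell from 136, 143 and 132 CPM to 127, 107 and 117 CPM (log2 fold change -0.23, adjusted p 0.0505), and the endosomal Vamp4 from 108, 106 and 114 CPM to 92.4, 101 and 92.7 CPM (-0.20, adjusted p 0.0767). All 6 VAMPs and all 4 genes of the SNAP-25 family with AP180 had log2 fold changes below 0. Vamp3 (means of 28.7 CPM on the control diet and 28.6 CPM on acetate) and Vamp8 (7.35 and 7.19 CPM) were nearly level. The genes called were Vamp1, Vamp4, Snap25 and Snap91, the last of which encodes AP180.

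The syntaxins did not follow. Stx1a, a plasma membrane syntaxin of neurons, had a log2 fold change of -0.09 (adjusted p 0.503), and 9 of the 13 syntaxins were above 0. Stx1a was at 94.8, 81.5 and 86.1 CPM on the control diet and 80.6, 76.1 and 90.3 CPM on acetate, with overlap. The only syntaxin called was Stx17, the SNARE of autophagosomes, at 31.6, 26.3 and 27.7 CPM on the control diet and 35.7, 33.1 and 33.0 CPM on acetate (log2 fold change 0.25, adjusted p 0.0956). It sat near the threshold and DESeq2 did not call it.

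Among the genes that organise vesicles, Syn1 and Syn2 fell while Syn3 did not pass. Syn1 went from 646, 592 and 603 CPM to 519, 515 and 570 CPM (log2 fold change -0.20, adjusted p 0.0499). Syn2 went from 835, 726 and 814 CPM to 616, 573 and 719 CPM (-0.32, adjusted p 0.0536). For both, every acetate-diet mouse was below every control-diet mouse. Snap91, the gene of the clathrin adaptor AP180, fell from 489, 431 and 490 CPM to 364, 361 and 423 CPM (-0.30, SE 0.0667, adjusted p 0.0256), also without overlap. Sv2b had a log2 fold change as large (-0.34) but an adjusted p of 0.105, and Sv2a was at -0.06 (adjusted p 0.464) with 480, 459 and 471 CPM on the control diet and 466, 444 and 439 CPM on acetate. None of the 4 Rab3 genes was called by edgeR or DESeq2, and Rab3a, the main one, was at 473, 452 and 486 CPM against 434, 443 and 475 CPM (log2 fold change -0.06).

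Among the regulators of the SNARE bundle, Stxbp2 and Cplx3 rose. Stxbp2, the Munc18 gene of mast cells, platelets and epithelia, rose from 24.0, 24.3 and 19.6 CPM to 33.8, 35.3 and 33.5 CPM, by 51.2% (log2 fold change 0.60, SE 0.143, adjusted p 0.0413). Cplx1 (500, 502 and 494 CPM against 460, 424 and 463 CPM) just missed with a log2 fold change of -0.15 and an adjusted p of 0.107, and Cplx2 (2016, 2057 and 2244 CPM against 1875, 1903 and 2098 CPM) was at -0.10 (adjusted p 0.287). The rare Cplx3 rose from 2.21, 1.70 and 1.29 CPM to 3.16, 3.51 and 3.77 CPM (log2 fold change 0.99, SE 0.265, adjusted p 0.0455), the largest called change of any member.

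Of the 16 synaptotagmins, 2 rose and 1 fell. Syt16, which lacks the calcium-binding residues of its family, rose from 59.7, 60.6 and 56.7 CPM to 79.5, 86.6 and 74.5 CPM (log2 fold change 0.44, SE 0.0881, adjusted p 0.0192). Syt5, a calcium-binding member, rose from 101, 103 and 113 CPM to 125, 127 and 119 CPM (0.23, adjusted p 0.0389). Syt13, another member without calcium binding, fell from 269, 268 and 289 CPM to 219, 219 and 262 CPM (-0.24, adjusted p 0.0516). The fast sensor Syt1 was at 1612, 1570 and 1669 CPM on acetate, below all 3 control mice, but was not called (-0.14, adjusted p 0.125). The largest log2 fold change of all, -1.09 for Syt9, had an SE of 0.953 and an adjusted p of 0.574.

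These calls rested on few mice. Without PBS-injected acetate-diet mouse 2, edgeR called 0 members and 0.101% of all genes; without acetate-diet mouse 1 it called 3 (Snap25, Syt16, Vamp1) and 2.11% of all genes, and without control-diet mouse 3 it called 3 (Snap25, Syt16, Syt5) and 1.66%. Without both mice that stood apart, 11 members were called, 9 of them among the 12, with 6.93% of all genes. DESeq2 called 15 members, 11 of them shared with edgeR and the others Cplx1, Stxbp5l, Sv2b and Syt1, where it called 9.29% of all genes. Regional and glial markers moved with the same diet groups in PBS-injected mice: of 15 marker lists, the summed level was lower on acetate without overlap for 4, higher without overlap for 3 and overlapping for 8. Summed CA1 markers were 452 to 589 CPM on the control diet and 718 to 946 CPM on acetate (4 of 5 genes called higher), and summed CA3 markers were 134 to 169 and 67.7 to 126 CPM (1 of 4 called lower). Summed myelin genes were 7038 to 9075 and 4412 to 6074 CPM (2 of 7 called lower), and thalamus markers 140 to 338 and 110 to 116 CPM (1 of 6 called lower). Choroid plexus markers were also lower (80.9 to 113 and 62.5 to 77.3 CPM). Markers of inhibitory neurons (691 to 741 and 767 to 845 CPM) and of oligodendrocyte precursors (60.2 to 68.3 and 68.9 to 78.3 CPM) were higher. Their part in the changes of the members was not tested.

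**Figure D2:**
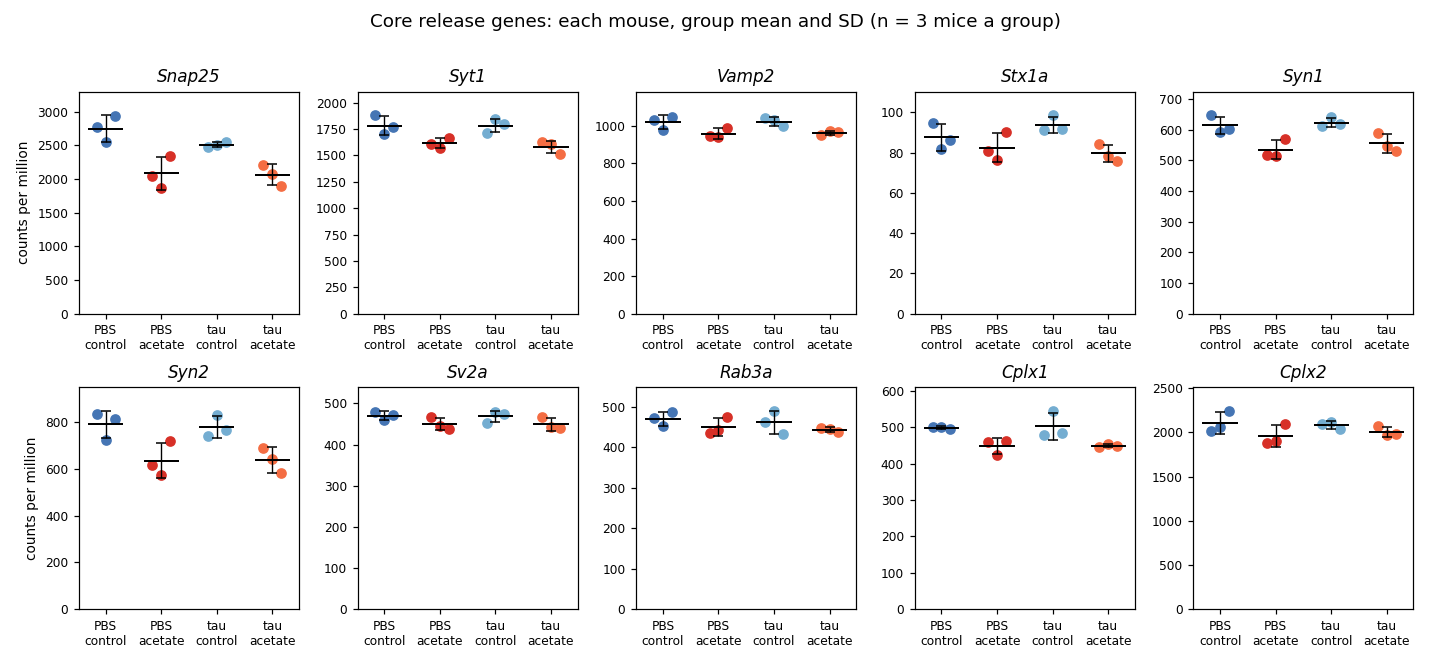
Values in CPM (linear axes from 0) of 10 core release genes in each mouse, with the group mean (line) and SD (bar), n = 3 mice a group. Snap25, Syt1, Syn1, Syn2 and Cplx1 are lower in all 6 acetate-diet mice than in all 6 control-diet mice, and Sv2a and Rab3a are nearly level.

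**Figure D3:**
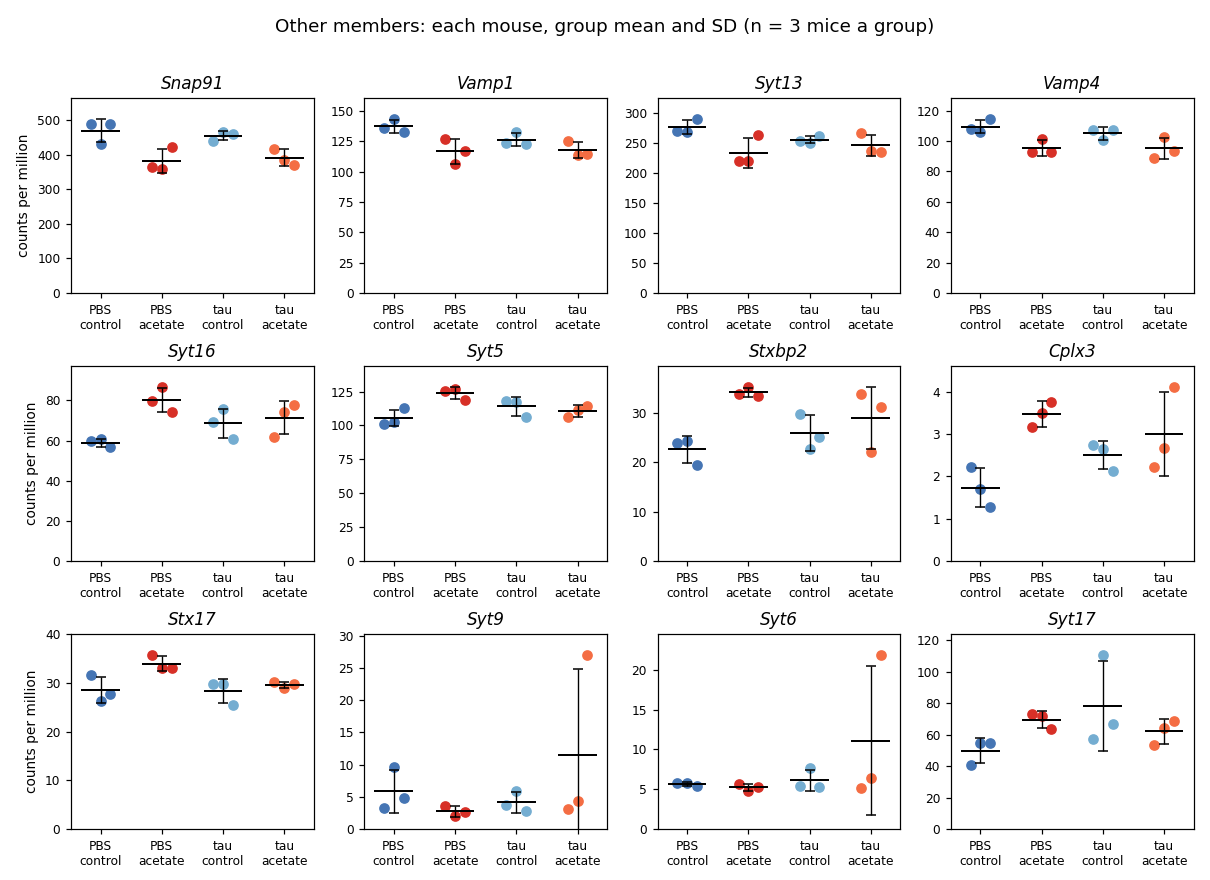
Values in CPM (linear axes from 0) of the other members called in PBS-injected mice and of Syt9, Syt6 and Syt17, in each mouse with the group mean (line) and SD (bar), n = 3 mice a group. Snap91 is lower on acetate with both injections, Syt16, Syt5, Stxbp2 and Cplx3 are higher on acetate in PBS-injected mice, and single mice carry the high values of Syt9, Syt6 and Syt17.

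In tau-injected mice the same diet comparison called 0 members by edgeR, where 0.0611% of all genes passed. DESeq2 called 7 (6 lower and 1 higher), against 2.19% of all genes. Groups did not overlap for 16 members (26.7%), 13 of them lower on acetate, against 14.4% of all genes.

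Values of the leading genes lay close to those of the PBS-injected arm. Snap25 was at 2470, 2504 and 2545 CPM on the control diet and 2211, 2080 and 1902 CPM on acetate. This was a log2 fold change of -0.28 (SE 0.0754, adjusted p 0.211), without overlap. Syn2 was at 741, 832 and 768 CPM and 691, 641 and 582 CPM (-0.29, adjusted p 0.261), and Snap91 at 442, 467 and 460 CPM and 418, 386 and 370 CPM (-0.22, adjusted p 0.259). In both genes, too, every acetate-diet mouse was below every control-diet mouse. Syn1 (610, 640 and 618 against 588, 546 and 531 CPM) had a log2 fold change of -0.17 (adjusted p 0.285).

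The 5 members with the smallest p were Snap25, Syt4, Syt1, Stx1a and Snap91, all below 0. Syt4, a vesicle protein of the secretory pathway, was at 155, 169 and 171 CPM on the control diet and 130, 150 and 126 CPM on acetate (-0.29, adjusted p 0.218). Syt1 was at 1712, 1844 and 1793 against 1624, 1606 and 1517 CPM (-0.17, adjusted p 0.251), and Stx1a at 91.4, 98.4 and 91.6 against 84.4, 78.4 and 76.0 CPM (-0.24, adjusted p 0.252). None of their groups overlapped. By DESeq2, Snap25, Snap91, Sv2b, Syn2, Syt1 and Syt4 were lower and Syn3 was higher. Syn3, the third synapsin, was at 61.4, 44.6 and 59.2 CPM on the control diet and 70.4, 73.7 and 78.9 CPM on acetate (log2 fold change 0.43, edgeR adjusted p 0.288).

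Of the 15 marker lists, 4 had no overlap between diets in tau-injected mice. Summed pan-neuronal markers were lower on acetate (3806 to 4138 CPM on the control diet and 3466 to 3787 CPM on acetate). Markers of astrocytes (1390 to 1505 and 1530 to 1656 CPM), dentate granule cells (459.6 to 561 and 566 to 645 CPM) and striatum (54.3 to 64.4 and 64.6 to 71.0 CPM) were higher. None of their genes was called by edgeR here, and their part in the values of the members was not tested. Summed CA1 markers overlapped between diets (606 to 767 and 653 to 935 CPM), as did CA3 markers (86.9 to 122 and 80.7 to 128 CPM), with 0 genes of either list called by edgeR. Myelin genes were 4667 to 5642 CPM on the control diet and 5328 to 8565 CPM on acetate, with overlap and with the higher mean on acetate, the reverse of the PBS-injected arm. 

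The arms share no mice, so the diet effects could be set side by side. Of the 60 members, 42 (70.0%) had the same sign in both arms, against 55.4% of all genes, and among the 29 abundant members 22 (75.9%) did, against 65.3% of all genes at that level. All 7 members that fell in PBS-injected mice had log2 fold changes below 0 in tau-injected mice. Of the 5 that rose, 4 were above 0 with tau, but by little: Stxbp2 was at 0.17 (adjusted p 0.729), Cplx3 at 0.24 (0.793), Stx17 at 0.06 (0.836) and Syt16 at 0.05 (0.885), while Syt5 was at -0.04 (0.847). Without tau-injected acetate-diet mouse 3, Cplx3 was at -0.04 and Syt16 at -0.0061.

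The interaction of diet and injection tested whether the diet effects differed, and edgeR called 0 members where 1.56% of all genes passed. DESeq2 called 0 members and 2.80% of all genes. The smallest p belonged to Syt5 (log2 difference of -0.28, SE 0.0833, adjusted p 0.143), whose values on acetate were 125, 127 and 119 CPM with PBS and 106, 111 and 114 CPM with tau, without overlap. Syt16 had an interaction of -0.39 (adjusted p 0.168) and Snap25 of 0.12 (adjusted p 0.706, 95% interval -0.10 to 0.35). Without tau-injected control-diet mouse 3, Syt5, Syt16 and Stxbp5l were called (3 members, 1.97% of all genes), and without tau-injected acetate-diet mouse 3 Syt16 alone was (2.96% of all genes).

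**Figure D4:**
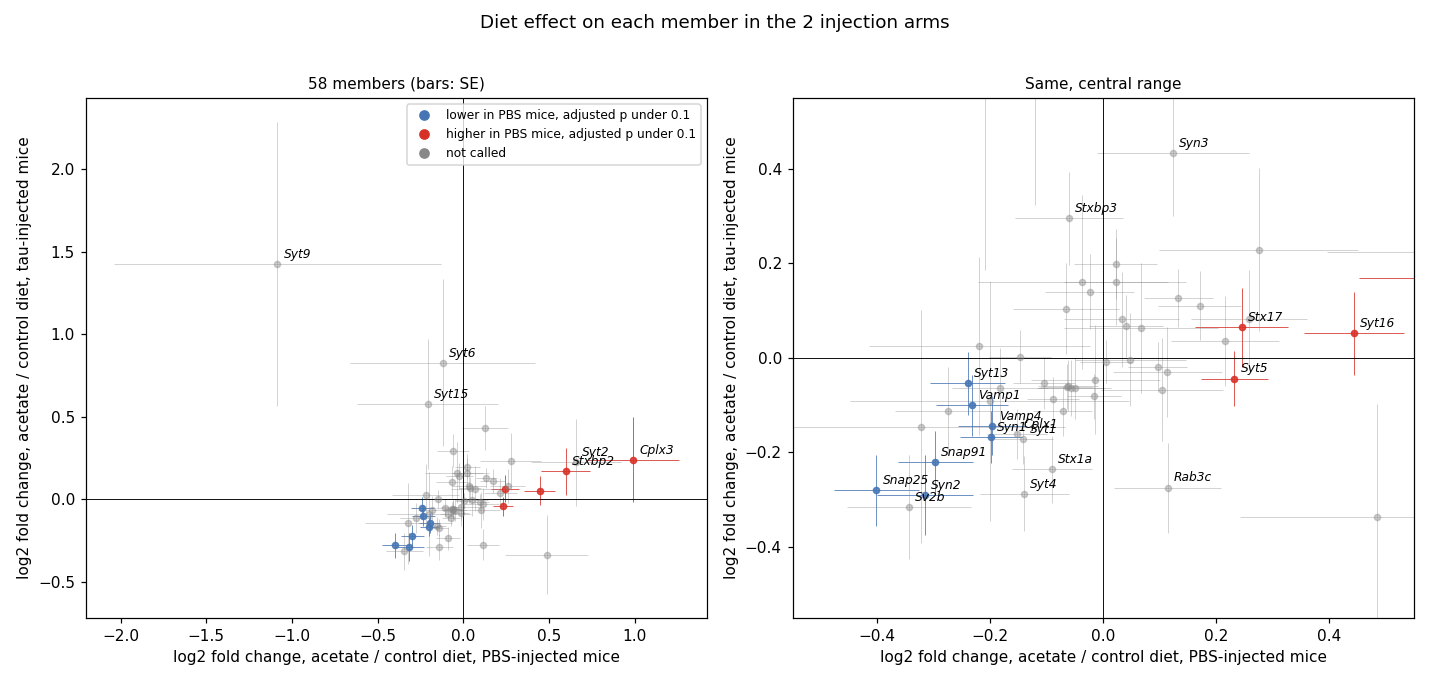
Log2 fold change of acetate over control diet in PBS-injected mice (x axis) against that in tau-injected mice (y axis) for 58 members at left and for the central range at right, with bars of 1 SE. Colours mark members called at an adjusted p below 0.1 in PBS-injected mice. The 7 that fell lie below 0 on both axes, and the 5 that rose lie near 0 or slightly above it on the y axis, apart from Cplx3 at 0.24 and Stxbp2 at 0.17.

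Because most diet effects had the same sign, their average over both injections was tested as well, a comparison chosen after the single ones had been seen and therefore no independent support. By edgeR, 11 members were lower, against 3.81% of all genes, and 3 were higher, against 1.95%. Snap25 had the smallest p: it fell by 21.0% (log2 fold change -0.34, SE 0.0533, adjusted p 0.00616). Snap91 (-0.26, adjusted p 0.0104), Syn1 (-0.18, 0.0203), Syn2 (-0.30, 0.0204), Syt1 (-0.16, 0.0283) and Cplx1 (-0.16, 0.0324) followed. The remaining lower members were Vamp4 (-0.17), Sv2b (-0.33), Syt4 (-0.21), Vamp1 (-0.17) and Stx1a (-0.16), and the higher ones Syt16 (0.25), Stxbp2 (0.38) and Cplx3 (0.62). Every lower member but Stx1a had a mean of 100 CPM or more. In PBS-injected mice, genes at that level were called lower more often than all genes, so the share of all genes is a low mark for these members.

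In 7 members (11.7%) all 6 acetate-diet mice were below all 6 control-diet mice, against 1.87% of all genes with groups that did not overlap. They were Snap25, Snap91, Syn1, Syn2, Syt1, Cplx1 and Sv2b, and all had a mean of 100 CPM or more, a level at which 5.18% of all genes were without overlap. For Snap25 the lowest control-diet mouse was at 2470 CPM and the highest acetate-diet mouse at 2341 CPM. For Sv2b, the SV2 form enriched in excitatory neurons, these values were 485 and 479 CPM, so the gap was small. Summed over the 60 members, control-diet mice had 17000 to 18097 CPM and acetate-diet mice 15343 to 16730 CPM. That sum is weighted to the most abundant genes. With equal weight for each member, the mean centred log2 CPM overlapped, at -0.028 to 0.033 on the control diet and -0.027 to 0.071 on acetate.

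Leaving out single mice took the count of 14 down to 5 (with 1.48% of all genes) without PBS-injected acetate-diet mouse 2 and to 6 (2.02%) without tau-injected acetate-diet mouse 3. It was 7 without PBS-injected control-diet mouse 3 (2.30%) and 7 without tau-injected control-diet mouse 3 (2.57%), and 6 without both mice that stood apart (2.14%). In the fit to all mice the share of all genes called in either direction was 5.76%. Snap25, Snap91, Syn1 and Syn2 were called under all 18 alternatives run for them, with adjusted p-values up to 0.0301, 0.0537, 0.0854 and 0.0659.

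On the acetate diet, tau was compared with PBS. EdgeR called 0 members, against 0.136% of all genes. DESeq2 called 0 members and 0.674% of all genes, and groups did not overlap for 6 members (10.0%), against 16.2% of all genes. Snap25 differed by a log2 fold change of -0.01 (95% interval -0.17 to 0.15), and Syn2 by 0.0043. Syt5 had the smallest p at -0.16 (adjusted p 0.332).

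The largest changes with tau on acetate belonged to rare synaptotagmins and came from 1 mouse. Syt9, a calcium sensor of fast release in some forebrain neurons, was at 3.07, 4.30 and 27.0 CPM in tau-injected acetate-diet mice, with 1.96 to 9.58 CPM in the 9 mice of the other groups. Its log2 fold change was 2.06 (SE 0.894, adjusted p 0.483) and 0.44 without mouse 3. Syt6 had the same shape, at 5.10, 6.35 and 21.8 CPM in this group and 4.80 to 7.63 CPM in the others. That mouse is the one with high choroid plexus and medial habenula genes, and their part in these values was not tested. Averaged over both diets, tau gave 0 calls among members and 0% of all genes by edgeR.

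**Figure D5:**
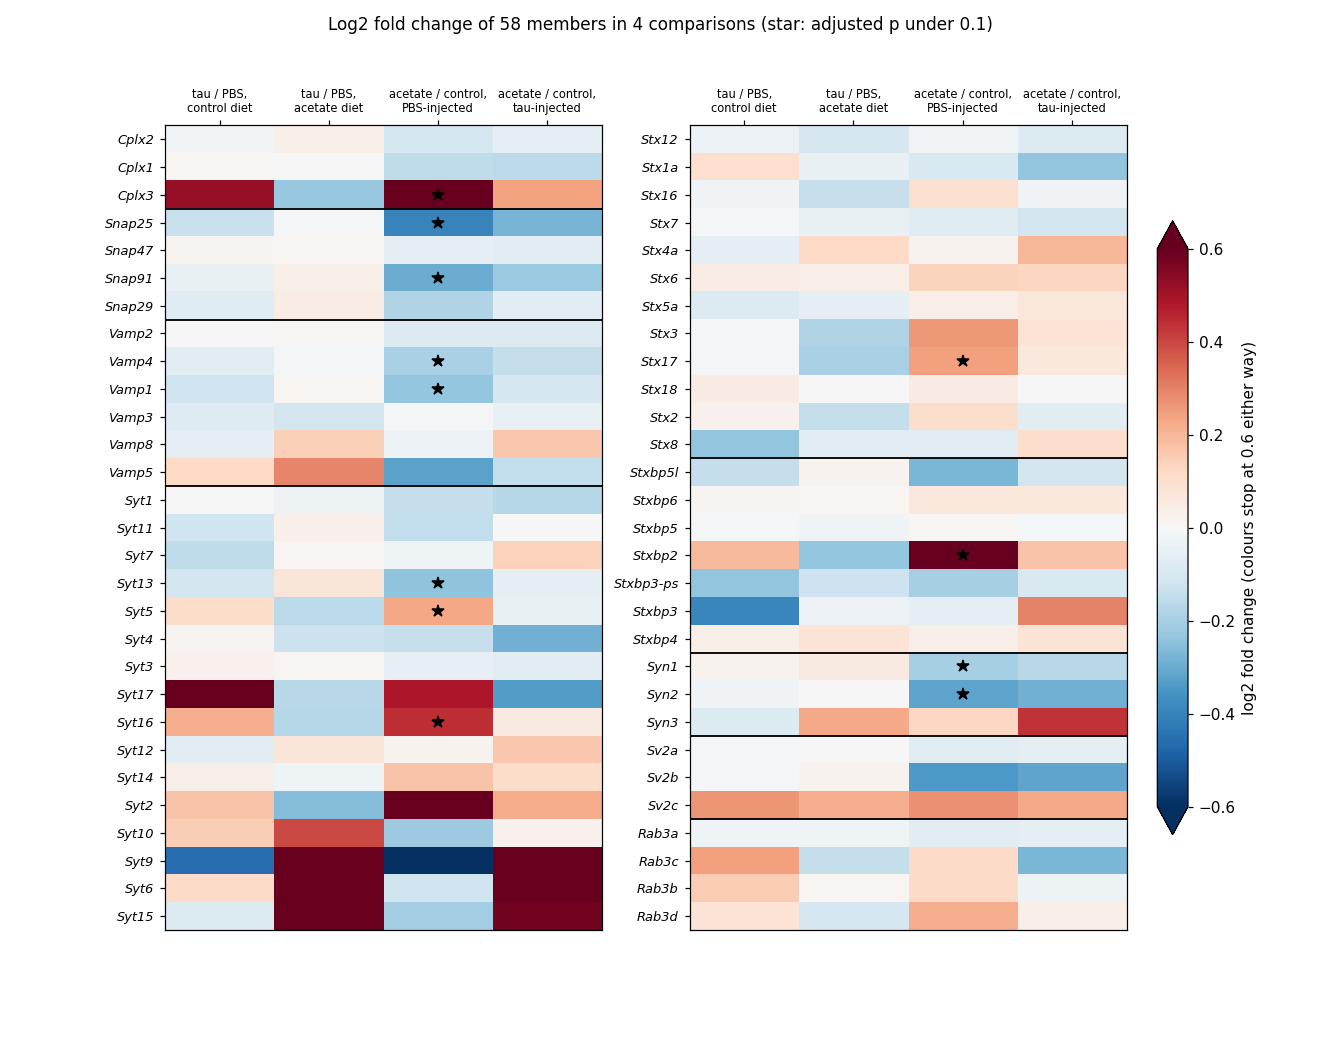
Log2 fold change of 58 members (rows, by family and level) in 4 comparisons (columns), with colours that stop at 0.6 either way and a star where the adjusted p was below 0.1. All 12 stars are in the column for acetate over control diet after PBS injection.

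Ratios of paralogs within a mouse are free of library size, and were described without a test because 3 mice against 3 allow no exact permutation p below 0.1. They were taken on raw counts, so they compare mice and not the abundance of the paralogs. The log2 ratio of Sv2b to Sv2a was 0.10, 0.29 and 0.27 against -0.01, 0.09 and -0.19 in tau-injected mice, lower on acetate in every mouse, and 0.35, 0.08 and 0.23 against -0.11, -0.18 and 0.13 in PBS-injected mice, with overlap. Syn1 to Syn2 was higher on acetate in tau-injected mice without overlap (means of -0.20 and -0.32). Syt2 to Syt1, the ratio of the fast sensor of some inhibitory neurons to that of most forebrain neurons, was -6.53, -6.38 and -6.39 in PBS-injected control-diet mice and -5.23, -5.58 and -6.27 on acetate, a gap that PBS-injected acetate-diet mouse 3 nearly closed. Vamp1 to Vamp2 and Cplx1 to Cplx2 overlapped in all 4 comparisons between groups.

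Other genes of release, from lists written with earlier results known, also included genes that fell on acetate. In PBS-injected mice, 5 of 17 active zone and priming genes fell (Rims1, Bsn, Pclo, Erc1 and Erc2), as did 1 of 13 vesicle membrane genes (Slc17a7, the vesicular glutamate transporter of cortical neurons), 2 of 8 SNARE recycling genes (Napb and Napg) and 5 of 17 endocytosis genes (Sh3gl2, Amph, Picalm, Dnajc6 and Ap2a2). Of all genes 4.85% were called lower, and 11.8% of those at 100 CPM or more. Not one gene of these lists was called higher by edgeR in that comparison. The active zone scaffold Bsn went from 749, 728 and 683 CPM to 536, 536 and 597 CPM (log2 fold change -0.37, adjusted p 0.0289), and Dnajc6, the auxilin that strips clathrin coats, from 415, 386 and 410 CPM to 308, 290 and 344 CPM (-0.36, adjusted p 0.0116). Both were without overlap. The medians of the lists were -0.14, -0.08, -0.14 and -0.13, against -0.05 for the members and 0.0042 for all genes. In tau-injected mice 0 genes of the lists were called by edgeR, with medians of -0.12, -0.09, -0.11 and -0.08. Of the 6 pan-neuronal markers, the neurofilament genes Nefl (-0.30, adjusted p 0.0201) and Nefm (-0.17, adjusted p 0.0703) fell in PBS-injected mice and the other 4 were not called, with log2 fold changes of 0.33 for Snhg11 (adjusted p 0.218, higher on acetate in every mouse), 0.05 for Map2, 0.02 for Rbfox3 and -0.08 for Tubb3. The summed level of that list overlapped between diets there (3661 to 4090 and 4034 to 4077 CPM), and in tau-injected mice, where 0 of the 6 were called, it was lower on acetate without overlap.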

How the data were processed

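Polyadenylated RNA from the right dorsal hippocampus of 12 mice was sequenced from directional libraries. Per the labels and the study's methods, the authors aligned reads with STAR 2.5.2a to GRCm38, counted them per exon with HTSeq 0.9.1 on the reverse strand, and deposited raw counts with 1 column per mouse. SAMtools 1.1 and DESeq2 are also named in the processing notes. The gene annotation used was not given in the sources used here, and the labels and the methods name different versions of the library kit. Reads shared by near-identical genes may be lost or split by such counting. Total counts were 12983233 to 20218340 per mouse. At that depth abundant members were limited by how much mice differed (common biological coefficient of variation 7.25%) and rare ones by counting noise.

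Everything else was computed here. Groups came from the sample labels, which name each group's replicates as biological. Members and gene lists were chosen with earlier results of these data known. The named members were 12 core release genes, members past the threshold in any of 5 comparisons, the member with the largest fold change and that with the smallest p in each, and the highest of each family. Values of 2 members are not reported here, and counts over members include them. Genes were kept by filterByExpr (minimum count 10, minimum total 15), which left 14742, with all 60 members. Group means were fitted to all 12 mice after TMM scaling in edgeR 4.0.16 (R 4.3.3), with the robust quasi-likelihood F test as the main test and 8 residual degrees of freedom. The Benjamini-Hochberg adjustment ran over every gene tested, and a gene counted as called when its adjusted p lay below 0.1. The F statistic gave the standard errors and, with the t distribution, the 95% intervals. The averages of both diet effects and of both injection effects were added after the data were seen. DESeq2 1.42.0 served as the other tool, and genes for which it gives no adjusted p were not counted. Normalised values are CPM after TMM, and RPKM divides these by the union of GENCODE vM21 exons (GRCm38), which matched 64 of the 65 symbols. Promoters were from RefSeq. The functions were tested on simulated data. Replicates of a group differed by more than sampling noise (chi-square per gene 3.43 to 7.45), so each was counted once. Alternatives are given in the closing section.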

Additional observations from a re-analysis of the deposited data

How the results depend on the processing

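Counts of members called kept their size under most alternatives: edgeR with DESeq2's size factors, no filter on low counts, edgeR or DESeq2 on the compared mice, and DESeq2 on all 12 mice, each with the exceptions that follow. At an adjusted p below 0.05 the acetate diet in PBS-injected mice gave 7 members in place of 12. The share of all genes called went from 8.84% to 3.67%. The average over both injections gave 8 in place of 14, and the share of all genes went from 5.76% to 2.64%. In tau-injected mice DESeq2 called 7 members (2.19% of all genes) when fitted to all 12 mice and 6 (1.28%) when fitted to the 6 compared. There edgeR on all 12 mice called 0 members (0.0611% of all genes). Without both mice that stood apart (chosen after seeing the data) the average gave 6 (2.14% of all genes). Leaving out each mouse in turn gave 0 to 16 members for the acetate diet in PBS-injected mice, with 0.101% to 9.55% of all genes. It gave 5 to 16 for the average over both injections (1.48% to 7.31%) and 0 to 3 for the interaction (0.0536% to 2.96%). For the other comparisons it gave 0 members in every case, with at most 0.623% of all genes. The cause was not tested, except that leaving a mouse out means fewer mice.

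Single members changed sign in 9 cases, none of them a called value. For the acetate diet in tau-injected mice, leaving out each mouse gave -0.0025 to 0.10 for Stx17, -0.025 to 0.15 for Syt16, -0.18 to 1.90 for Syt9 and -0.041 to 0.43 for Cplx3. Stx17 (-0.0025) and Syt16 (-0.025) turned without tau-injected control-diet mouse 3, and Syt9 (-0.18), Cplx3 (-0.041) and Syt16 (-0.0061) without tau-injected acetate-diet mouse 3. Without both mice that stood apart Syt9 (-0.18), Cplx3 (-0.041) and Syt16 (-0.0060) turned as well. For tau averaged over both diets, Syt9 turned to -0.014 without tau-injected acetate-diet mouse 3, with a range of -0.014 to 1.06 over the mice left out.

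The labels number the mice 1 to 3 in each group, but same-numbered mice did not deviate together: the correlations of their deviations were -0.10 to 0.14, and 3 of 12 mice correlated best with their own number. With the replicate number as a block, edgeR called 13 members for the acetate diet in PBS-injected mice (12 shared with the unblocked fit, 8.30% of all genes). It called 14 for the average over both injections (12 shared, 5.14% of all genes). For each other comparison it called 0, with at most 2.37% of all genes. By the longest transcript in place of the exon union, Snap25 ranked first at 482 RPKM, Vamp2 second at 449.6 and Cplx2 the third at 414. Depth limited rare members such as Syt15 and Cplx3.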
